A study of Mus musculus with 9 samples.

Results

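The comparison described here is that of mouse prostate organoids in which Mpc1 had been deleted with vehicle organoids, and it takes 6 of the 9 RNA sequencing libraries of the series, chosen by their sample labels. All organoids were grown from basal cells of the prostate of male mice with floxed Mpc1 alleles, on a mixed C57BL/6N and C57BL/6J background. The 3 vehicle libraries are from organoids given vehicle after infection with a control lentivirus that makes only red fluorescent protein (RFP). The 3 Mpc1-KO libraries are from organoids given vehicle after infection with a lentivirus that makes RFP and Cre recombinase, the enzyme that cuts out DNA between loxP sites. Cells with RFP were sorted in both groups. The remaining 3 libraries came from organoids with the RFP virus and the inhibitor UK5099 at 10 µM for a week, and they are used only to show where deletion and drug differed. Cre recombinase came with the deletion in every Mpc1-KO library, so that the effects of Cre and of the deletion cannot be told apart. The labels do not say whether the 3 replicates of a group were separate cultures or animals, and p-values therefore measure the spread between these libraries, which may be technical.

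Mpc1 and Mpc2 form the mitochondrial pyruvate carrier, a protein pair in the inner mitochondrial membrane that brings pyruvate, the end product of glycolysis, into the matrix. There pyruvate is turned into acetyl-CoA by pyruvate dehydrogenase or into oxaloacetate by pyruvate carboxylase. Without the carrier, pyruvate can be reduced to lactate in the cytosol, and other fuels such as glutamine and fatty acids can feed the tricarboxylic acid (TCA) cycle. In the prostate, basal cells with high Krt5 and Krt14 line the outside of the gland and can give rise to luminal cells with high Krt8 and Krt18. The comparison addresses what loss of this carrier does to gene expression in organoids of basal origin.

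Values are CPM, normalised read counts that scale the reads of a gene to all reads assigned to genes in that library. The 6 libraries held 21.8 to 28.7 M reads, and a gene at the detection floor of 3 reads stood at 0.104 to 0.138 CPM. The first principal component of the 6 libraries held 67.06% of the variance and placed all vehicle libraries at one end and all Mpc1-KO libraries at the other. Vehicle library 1 stood apart from the other vehicle libraries on the second component, with 15.61% of the variance. Epithelial markers were abundant in all 9 libraries, with Epcam between 1517 and 3204 CPM and Cdh1 between 2075 and 2429 CPM. The immune marker Ptprc reached at most 0.19 CPM. Among fibroblast and smooth muscle markers, Col3a1 reached at most 0.77 CPM and Myh11 0.31 CPM, while Col1a1 reached 6.02 CPM and Acta2 2.17 CPM. The neuroendocrine markers Chga and Syp reached at most 0.14 and 0.17 CPM. Of the endothelial markers, Cdh5 had no reads in any library and Pecam1 reached at most 1.00 CPM. The 16 immune markers summed to 99.1 to 101.1 CPM in vehicle and 99.7 to 101.8 CPM in Mpc1-KO, and the 2 of them tested, Cd68 and Cd14, did not pass. The 9 endothelial markers summed to 78.1 to 92.6 CPM in vehicle and 71.6 to 74.0 CPM in Mpc1-KO, and the 1 tested, Flt1, made up nearly all of the sum and passed lower (-0.25). The 11 neuroendocrine markers summed to 29.0 to 44.2 CPM in vehicle and 27.2 to 29.1 CPM in Mpc1-KO, and of the 2 tested Calca passed higher (0.78) and Ncam1 lower (-0.50), the latter not without Mpc1-KO library 3. Flt1 and Ncam1 did not pass when the spread was estimated over all 9 libraries. The part of such cells in the results was not tested.

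The targeted gene was low in all libraries and lower after deletion. Mpc1 stood at 2.36, 2.41 and 2.38 CPM in vehicle libraries 1 to 3 and at 0.52, 0.53 and 0.60 CPM in Mpc1-KO libraries 1 to 3. These values rest on 52, 66 and 57 reads and on 15, 12 and 13 reads, and the exact Poisson 95% intervals of the 2 groups did not overlap, reaching down to 1.76 CPM in vehicle and up to 1.02 CPM in Mpc1-KO. The log2 fold change of Mpc1 was -1.46 ± 0.15 (SE, n = 3 against 3), with an adjusted p of 5.73e-05 from limma. Organoids with UK5099 held 2.04, 2.47 and 2.30 CPM, within or close to the vehicle range. Reads can be shared with the pseudogene Mpc1-ps, which held 0.18, 0.18 and 0.29 CPM in vehicle and 0.035, 0.089 and 0.046 CPM in Mpc1-KO, from 1 to 7 reads a library. Mpc2, the partner subunit, stood at 10.8, 10.99 and 9.87 CPM in vehicle and 12.2, 11.4 and 13.1 CPM in Mpc1-KO and did not pass the test (adjusted p 0.0946).

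Of 12254 genes whose mean reached 1 CPM, 4412 (36.0%) passed at an adjusted p below 0.05 in limma's fit of log2(CPM + 0.5). They split into 2167 higher in Mpc1-KO (17.7%) and 2245 lower (18.3%). The 2 groups did not overlap in 6148 genes (50.2%). Most changes were small. The median change of a passing gene was 1.23-fold, 718 genes changed by more than 1.5-fold, and 177 by more than 2-fold, of which 42 rose and 135 fell. The median log2 fold change of all genes was -0.01. The number of calls depended on the libraries used, since leaving out any 1 of the 6 gave between 3058 and 5162 genes, and 2679 genes passed in the full comparison and without each library in turn. Estimating the spread over all 9 libraries, among which those with UK5099 varied more, left 1323 genes. Fold changes are on the log2(CPM + 0.5) scale, which understates the change of low genes.

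**Figure D1:**
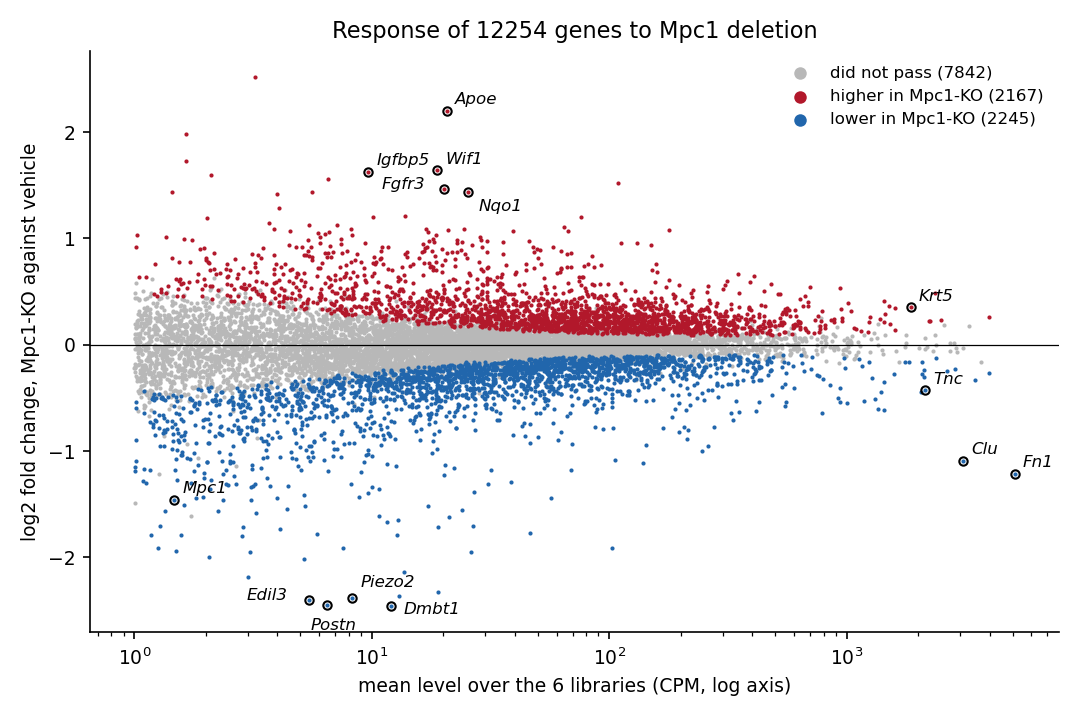
Each point is 1 of 12254 genes, with its mean level over the 3 vehicle and 3 Mpc1-KO libraries in CPM on a log axis and its log2 fold change on the vertical axis. Genes that passed higher (2167, red) and lower (2245, blue) surround those that did not pass (7842, grey), and more genes lie far below zero than far above it. Of genes with at least 5 CPM, Dmbt1 (-2.46) is the lowest and Apoe (2.20) the highest.

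Among genes with at least 5 CPM, the largest rise was that of Apoe, which codes for the lipid carrier apolipoprotein E. Apoe stood at 5.94, 7.30 and 7.90 CPM in vehicle libraries and at 37.8, 28.4 and 36.7 CPM in Mpc1-KO libraries, with no overlap. The change in Apoe was 2.20 ± 0.13 (SE, log2), at an adjusted p of 2.89e-06. Wif1, a secreted inhibitor of Wnt ligands, went from 8.97, 7.30 and 10.6 to 31.2, 27.5 and 27.7 CPM. Wif1 showed a log2 fold change of 1.65 ± 0.12 (SE), with an adjusted p of 8.59e-06. Igfbp5, which binds insulin-like growth factors, had 3.17, 4.60 and 5.35 CPM in vehicle and 20.9, 13.4 and 10.4 CPM in Mpc1-KO, with the highest level in Mpc1-KO library 1. Igfbp5 had a log2 fold change of 1.63 ± 0.23 (SE) and an adjusted p of 4.33e-04. The fibroblast growth factor receptor Fgfr3 rose from 10.9, 9.56 and 10.96 to 31.6, 28.6 and 29.3 CPM, a gap larger than the spread in either group. The change in Fgfr3 was 1.47 ± 0.078 (SE, log2), at an adjusted p of 2.08e-06. The remaining large rises were those of Crnn (cornulin, of squamous epithelium, 1.52 on the log2 scale), the quinone reductase Nqo1 (1.44), Oit1 (1.21), Sprr2h (1.21), the matrix metalloprotease Mmp3 (1.20) and Gt(ROSA)26Sor (1.56), the transcript of a locus into which transgenes are often placed in mice. Gt(ROSA)26Sor stood at 2.27, 3.03 and 4.06 CPM in vehicle, 10.9, 9.07 and 9.93 CPM in Mpc1-KO and 2.97, 3.12 and 3.15 CPM with UK5099, so that it was high only in the libraries with the Cre virus.

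Under the same conditions of at least 5 CPM and no overlap, the largest falls went further than the largest rises. Dmbt1, which codes for a scavenger receptor protein of mucosal epithelia, went from 22.4, 18.8 and 21.2 CPM in vehicle to 3.45, 3.60 and 3.08 CPM in Mpc1-KO. Dmbt1 showed a log2 fold change of -2.46 ± 0.10 (SE), with an adjusted p of 1.04e-06. Postn, the matrix protein periostin, was at 8.11, 14.5 and 11.3 CPM in vehicle and 1.53, 1.78 and 1.52 CPM in Mpc1-KO, and vehicle values spread widely without reaching those of Mpc1-KO. Postn had a log2 fold change of -2.45 ± 0.18 (SE) and an adjusted p of 1.08e-05. The mechanically gated channel Piezo2 fell from 14.9, 14.5 and 13.01 to 2.02, 2.09 and 2.90 CPM. The change in Piezo2 was -2.38 ± 0.13 (SE, log2), at an adjusted p of 2.41e-06. The groups did not overlap for these genes, as their choice required. Log2 fold changes of the others were -2.40 for Edil3, an integrin ligand of the extracellular matrix, -2.36 for the protease inhibitor Ctla2a, -2.32 for Odaph, -2.14 for the regulator of G-protein signalling Rgs4, -2.01 for Plekhb1, -1.95 for the transcription factor Sox11 and -1.91 for Tnfrsf11b, the decoy receptor osteoprotegerin. These genes passed under every alternative tried.

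The 2 largest losses in CPM were in genes of secreted proteins. Fn1 (fibronectin) held 6618, 7734 and 6997 CPM in vehicle and 2685, 3535 and 3027 CPM in Mpc1-KO. Fn1 showed a log2 fold change of -1.21 ± 0.092 (SE), with an adjusted p of 1.12e-05. The chaperone Clu (clusterin) held 4247, 4202 and 4173 CPM in vehicle and 1841, 2167 and 1937 CPM in Mpc1-KO. Clu had a log2 fold change of -1.09 ± 0.058 (SE) and an adjusted p of 2.08e-06. Both genes together made up 13.3% of all CPM lost by genes that passed lower. Further large losses in CPM were in Lama3 (-0.26 on the log2 scale), Aplp2 (-0.45), Tnc (-0.43), Mmp9 (-0.62) and the prostaglandin transporter Slco2a1 (-0.60), that is, a laminin chain, an amyloid precursor-like protein, tenascin C and a gelatinase besides the transporter. The largest gains in CPM were in Ero1l (0.49), Eef2 (0.26), Krt5 (0.36), Ndrg1 (0.41), Bsg (0.23), Gja1 (0.34), Egln3 (0.36) and Dst (0.54), all below 1.5-fold. Bsg did not pass without any 1 of the 3 Mpc1-KO libraries (adjusted p 0.0536 to 0.066), and with the spread of 9 libraries only Krt5 of these gains passed, while Mmp9 was lost.

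**Figure D2:**
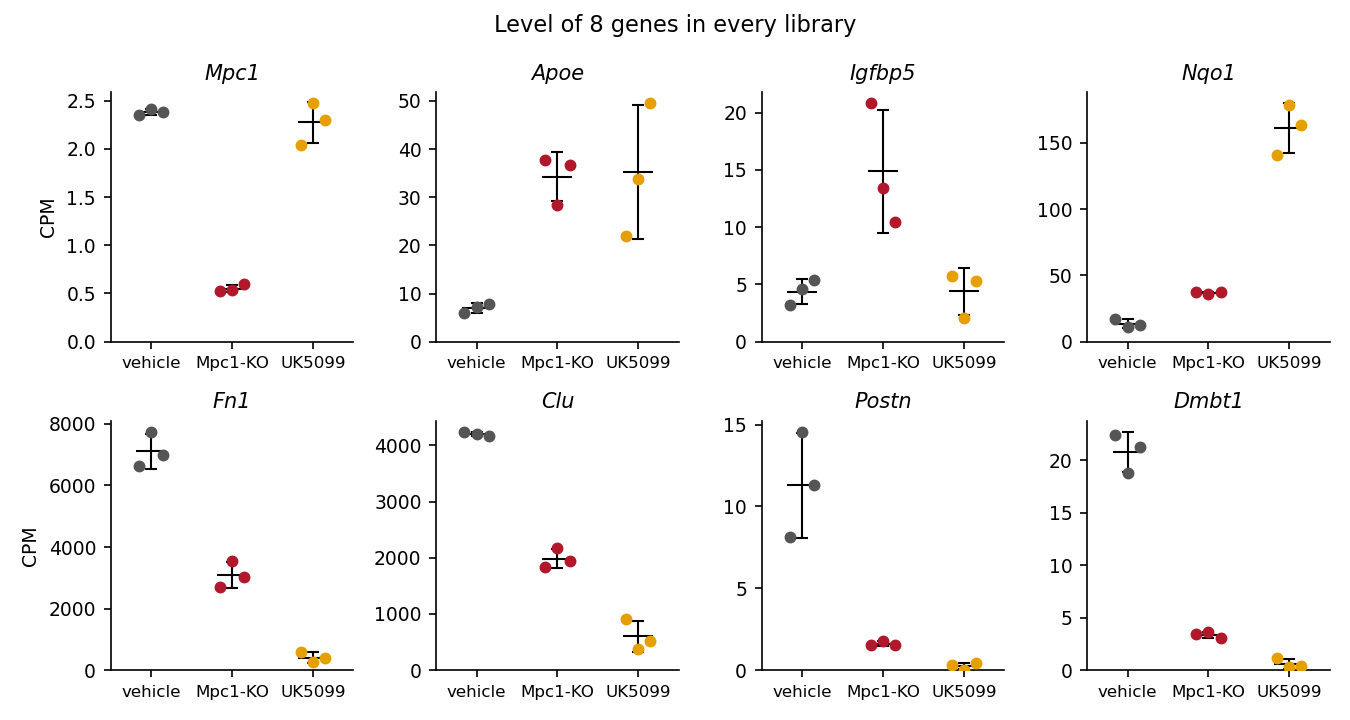
Level in CPM (vertical axes, from 0) of 8 genes in each library of vehicle (grey), Mpc1-KO (red) and UK5099 (orange) organoids, where points are libraries, the dash is the mean and bars show ± 1 SD of 3 libraries. Mpc1 is low only in Mpc1-KO (0.52 to 0.60 CPM), and for Fn1, Clu, Postn and Dmbt1 the Mpc1-KO libraries lie between vehicle and UK5099.

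Genes of mitosis were higher as a group. Of 73 measured members of a list of mitotic genes, 67 passed higher and none lower, against 17.7% of all genes passing higher, and their median log2 fold change was 0.82. In single libraries the median of the list, relative to the vehicle mean, was 0.21, -0.11 and -0.09 in vehicle and 0.84, 0.81 and 0.80 in Mpc1-KO. Vehicle library 1 was thus the highest of its group, and the gap to the lowest Mpc1-KO library remained. Anln (anillin, of the contractile ring) stood at 77.3, 71.9 and 79.3 CPM in vehicle and 150.2, 151 and 144 CPM in Mpc1-KO. The change in Anln was 0.96 ± 0.045 (SE, log2), at an adjusted p of 1.54e-06. Smc4, a condensin subunit, went from 124, 123 and 119 to 194, 196 and 199.7 CPM. Smc4 showed a log2 fold change of 0.68 ± 0.035 (SE), with an adjusted p of 2.08e-06. The spindle proteins Ckap2l and Hmmr rose by 1.07 and 1.01 on the log2 scale. The proliferation marker Mki67 (1.08), the spindle motor Kif11 (0.93) and the kinase Cdk1 (0.66), picked after their values were seen, passed as well. Members that did not pass were Pttg1 (-0.20), Spc25 (0.35), Ube2s (0.23), Cenpn (0.38), Bub3 (0.082) and Cdca5 (0.40). Without any 1 library the count of rising members lay between 63 and 72.

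Genes of DNA replication rose less. Of 61 members 28 passed higher (45.9%, against 17.7% of all genes) and none lower, with a median log2 fold change of 0.28. The ribonucleotide reductase subunit Rrm2 went from 60.3, 61.9 and 62.01 to 95.003, 88.7 and 88.9 CPM, with no overlap of the groups. Rrm2 had a log2 fold change of 0.56 ± 0.042 (SE) and an adjusted p of 1.12e-05. The licensing factor Cdt1 (0.52) and the repressors E2f7 (0.80) and E2f8 (0.57) passed too, while the sliding clamp Pcna (0.037, named after its value was seen) did not. The count fell to 15 without Mpc1-KO library 1 and to 17 without Mpc1-KO library 3 or vehicle library 3, and with the spread of 9 libraries 6 members passed higher, Rrm2 not among them.

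Promoters of both lists differ in the short motifs they hold. RefSeq promoters (mouse build GRCm38.p6, 250 bases before to 50 after a start) were available for 9487 of the genes tested, as 12144 windows. The CHR motif of mitotic genes (TTTGAA, on either strand) lay in 67.2% of windows of mitosis genes and 12.1% of all windows. CCAAT lay in 71.6% of them against 37.8%. An E2F motif, which is TTCCCGC or its variant TTGGCGC or its variant TTCGCGC on either strand, lay in 58.6% of windows of replication genes, 25.4% of those of mitosis genes and 14.4% of all windows. Over all genes that passed higher, shares were 14.4% for CHR, 40.7% for CCAAT and 15.1% for E2F, and over genes that passed lower 10.6%, 33.2% and 11.5%. These are descriptions of letters in a window, and a match is not a binding site. The promoters of Anln and E2f8 are shown because these genes had the smallest p of their list among those with a fitting motif. In the Anln window (chr9:22389157-22389456, minus strand) capitals mark 2 CHR motifs, 1 on each strand, and in the E2f8 window (chr7:48881547-48881846, minus strand) they mark the E2F motif.
Anln: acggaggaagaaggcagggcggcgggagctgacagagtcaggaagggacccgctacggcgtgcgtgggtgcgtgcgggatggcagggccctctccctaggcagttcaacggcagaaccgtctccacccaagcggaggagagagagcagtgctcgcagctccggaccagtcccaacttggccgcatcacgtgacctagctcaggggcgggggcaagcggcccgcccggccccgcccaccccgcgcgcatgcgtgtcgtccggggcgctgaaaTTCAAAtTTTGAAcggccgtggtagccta
E2f8: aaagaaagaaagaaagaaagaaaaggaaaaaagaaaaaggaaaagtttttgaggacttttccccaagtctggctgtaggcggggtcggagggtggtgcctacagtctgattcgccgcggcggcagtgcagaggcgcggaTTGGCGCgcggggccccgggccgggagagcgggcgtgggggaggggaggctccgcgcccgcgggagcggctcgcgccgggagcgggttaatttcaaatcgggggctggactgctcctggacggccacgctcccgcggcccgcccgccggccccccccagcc

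Glycolytic and hypoxia-responsive genes moved upward. Of 22 genes of glycolysis and lactate transport 13 passed higher (59.1%) and none lower, at a median log2 change of 0.14. Of 23 hypoxia-responsive genes 15 passed higher (65.2%) and 1 lower, with a median of 0.32. Over all genes 17.7% passed higher and 18.3% lower. Pfkfb3, which makes the activator of phosphofructokinase and belongs to both lists, stood at 102, 124 and 118 CPM in vehicle and 193, 183 and 184 CPM in Mpc1-KO. The change in Pfkfb3 was 0.71 ± 0.064 (SE, log2), at an adjusted p of 3.21e-05. The lactate and pyruvate transporter Slc16a1 (MCT1) went from 23.2, 25.3 and 23.5 to 37.4, 34.5 and 39.8 CPM. Slc16a1 showed a log2 fold change of 0.62 ± 0.067 (SE), with an adjusted p of 8.26e-05. Hexokinase 2 (Hk2, 0.43) and aldolase C (Aldoc, 0.36) rose by smaller amounts, and so did the hypoxia-responsive genes Adm (0.75), Ankrd37 (0.64) and Kdm3a (0.40). The member that went against the rest was the lysyl oxidase-like enzyme Loxl2 (-0.80). Vehicle library 1 had the lowest medians of its group, -0.10 for glycolysis and -0.16 for hypoxia. The glycolysis count fell to 7 without Mpc1-KO library 1 or 2 and to 8 without Mpc1-KO library 3, while that of hypoxia stayed between 14 and 17. Without vehicle library 1 the falling members numbered 2 for glycolysis and 3 for hypoxia. With the spread of 9 libraries 1 member of each list passed, and Slc16a1 was the only gene named in this paragraph to do so.

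Around the carrier, changes were modest. Pyruvate carboxylase (Pcx) rose from 24.5, 29.02 and 29.4 to 43.7, 36.2 and 39.3 CPM, without overlap between the groups. Pcx had a log2 fold change of 0.52 ± 0.085 (SE) and an adjusted p of 0.00105. The pyruvate dehydrogenase phosphatases Pdp1 (0.24) and Pdp2 (0.34) and the kinase Pdk2 (0.25) passed higher. None of the subunits Pdha1 (0.062), Pdhb (0.035), Dlat (-0.10), Dld (0.13) and Pdhx (-0.29), nor Pdk1 (0.03), Pdk3 (0.26) and Pdpr (0.15), passed. Pdk2 lost its call without Mpc1-KO library 1 (adjusted p 0.0541). Pdp1 lost its call without vehicle library 2 or 3 or Mpc1-KO library 1 or 3 (adjusted p 0.0814 to 0.141). Of 14 genes in all 4 passed higher (28.6%, against 17.7% of all genes), and Mpc1 alone passed lower. The rising genes numbered 7 without vehicle library 1, where Pdha1, Dld and Pdk3 were added, and 2 without Mpc1-KO library 1. With the spread of 9 libraries Pcx, Pdp1 and Pdk2 lost their calls and 1 gene passed higher. Of 9 genes of the pentose phosphate pathway 4 passed higher (2 without vehicle library 2 or Mpc1-KO library 2), led by transaldolase (Taldo1, 0.29), and the glutamine transporter Slc38a1 fell from 10.6, 13.2 and 15.2 to 6.23, 6.31 and 6.20 CPM. The change in Slc38a1 was -0.99 ± 0.12 (SE, log2), at an adjusted p of 2.01e-04.

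Nuclear genes of mitochondrial respiration did not change in a large share. Of 74 genes of the respiratory chain 15 passed higher, or 20.3% against 17.7% of all genes, and none lower, against 18.3%. Their median log2 fold change was 0.06. Of 23 TCA cycle genes 5 passed higher and none lower (at most 1 with a library left out), with a median of 0.05. Both rising counts hung on single libraries. They rose to 20 and 10 without vehicle library 1, and leaving out any other library gave 6 to 8 members of the respiratory chain and 1 or 2 of the TCA cycle. Transcripts of the mitochondrial genome split. The ribosomal RNAs mt-Rnr2 and mt-Rnr1 went from 543, 548 and 599 to 765, 757 and 807 CPM and from 222, 267 and 325 to 429, 399.7 and 451 CPM, both without overlap. mt-Rnr2 showed a log2 fold change of 0.46 ± 0.046 (SE), with an adjusted p of 5.17e-05. mt-Rnr1 had a log2 fold change of 0.67 ± 0.11 (SE) and an adjusted p of 9.01e-04. By contrast mt-Cytb (-0.54) and mt-Nd4 (-0.34) passed lower, the latter not without Mpc1-KO library 1 (adjusted p 0.0623), and neither with the spread of 9 libraries. The remaining 5 measured transcripts (mt-Nd1, mt-Nd2, mt-Nd5, mt-Nd6 and mt-Co1) did not pass, at -0.17 to 0.23. Without vehicle library 2 the falling transcripts numbered 5, with mt-Nd1, mt-Nd2 and mt-Nd5 added, and without vehicle library 1 mt-Co1 passed higher (log2 fold change 0.26). The libraries were enriched for polyadenylated RNA, and ribosomal RNA in them is what that step left.

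Lipid genes went both ways. Of 28 genes of fatty acid oxidation 4 passed higher (14.3%, and 2 genes without any 1 Mpc1-KO library) and 7 lower (25%), against 17.7% and 18.3% of all genes. Among the latter was Angptl4, which codes for an inhibitor of lipoprotein lipase and fell from 11.8, 15.7 and 14.8 to 3.90, 6.49 and 4.92 CPM. The change in Angptl4 was -1.40 ± 0.16 (SE, log2), at an adjusted p of 1.43e-04. The lipid droplet protein Plin2 (-0.50) and the reductase Decr1 (-0.44) fell too. Acss2, which makes acetyl-CoA from acetate, rose from 34.3, 32.8 and 34.4 to 56.7, 54.8 and 55.1 CPM. Acss2 showed a log2 fold change of 0.71 ± 0.047 (SE), with an adjusted p of 5.39e-06. Of 27 genes of cholesterol synthesis 2 passed higher (7.41%) and 4 lower (14.8%), and among those with the smallest p Stard4 rose (0.44) and Scap (-0.40) and Hsd17b7 (-0.58) fell. Without vehicle library 1 the count of rising cholesterol genes went from 2 to 12, and it was 1 without vehicle library 2 or 3 or Mpc1-KO library 1 or 3. Acss2 and Hsd17b7 did not pass with the spread of 9 libraries.

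Targets of NRF2, the transcription factor that responds to oxidants, rose. Of 27 measured targets 15 passed higher (55.6%, against 17.7% of all genes) and 1 lower. The median log2 change was 0.24, and the count of rising targets stayed between 13 and 15 when a library was left out. Nqo1 stood at 17.04, 10.8 and 12.9 CPM in vehicle and 37.7, 36.3 and 37.3 CPM in Mpc1-KO, while with UK5099 it reached 141, 179 and 163 CPM. Nqo1 had a log2 fold change of 1.44 ± 0.13 (SE) and an adjusted p of 2.93e-05. The glutathione transferase Gstp1 went from 44.7, 49.02 and 47.1 to 79.6, 75.6 and 78.5 CPM. The change in Gstp1 was 0.72 ± 0.048 (SE, log2), at an adjusted p of 5.38e-06. Osgin1 (0.76) and Gsta4 (0.50) rose too. The exception was the peroxiredoxin Prdx1 (-0.15), which did not pass without Mpc1-KO library 1 or 3 (adjusted p 0.11 and 0.112) nor with the spread of 9 libraries. Of 5 measured targets of the aryl hydrocarbon receptor 4 passed higher, Nqo1, Tiparp (0.47), Cyp1b1 (0.48) and Aldh3a1 (0.84), and with the spread of 9 libraries Tiparp did not pass. The remaining measured target of this list, Nfe2l2, which codes for NRF2, did not pass (0.07). The antioxidant response element (TGACNNNGC, on either strand) lay in 32.0% of 25 windows of NRF2 targets and 14.4% of all windows. The xenobiotic response element (TNGCGTG, on either strand), which the aryl hydrocarbon receptor binds, lay in 0 of the 4 windows of its targets and 7.95% of all windows. Of the NRF2 targets whose promoter held the antioxidant response element, Gsta3, a glutathione transferase (1.09), had the smallest p. Its promoter is shown for this reason with the antioxidant response element in capitals (chr1:21240335-21240634, plus strand).
Gsta3: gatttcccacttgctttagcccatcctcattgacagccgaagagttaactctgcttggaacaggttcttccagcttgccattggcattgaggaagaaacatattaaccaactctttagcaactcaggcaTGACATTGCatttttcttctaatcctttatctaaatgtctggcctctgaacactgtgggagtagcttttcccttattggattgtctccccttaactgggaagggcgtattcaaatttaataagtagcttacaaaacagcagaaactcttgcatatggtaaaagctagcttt

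Other stress programmes were partly raised. Of 27 genes of the ATF4 response and serine synthesis 11 passed higher (40.7%) and 2 lower (7.41%), against 17.7% and 18.3% of all genes. Psat1 of serine synthesis (0.56), Cbs (0.65) and the cystine transporter Slc7a11 (0.76) led the rises, while Atf5 (-0.57) and Trib3 (-0.25) went down. Of 27 genes of the unfolded protein response 13 passed higher (48.1%) and 3 lower (11.1%), with the chaperone Hspa5 (0.24) and the transcription factor Xbp1 (0.25) higher and Sel1l (-0.25) lower. The rising genes of this response fell to 4 without Mpc1-KO library 1, to 6 without library 3, to 7 without library 2 and to 8 without vehicle library 2. Of 30 p53 targets 4 passed higher (13.3%) and 11 lower (36.7%). Ccng1 (cyclin G1) went from 280.1, 242 and 241 to 163, 170.1 and 164 CPM. Ccng1 showed a log2 fold change of -0.61 ± 0.055 (SE), with an adjusted p of 3.24e-05. The phosphatase Tigar fell by 0.78, and Ckap2, which also serves the spindle, rose (0.88). The count of falling p53 targets was 6 to 7 without any 1 Mpc1-KO library. Trib3 did not pass without any of 5 of the 6 libraries (adjusted p 0.0505 to 0.109), and Cbs, Slc7a11, Atf5 and Trib3 did not with the spread of 9 libraries. The count of falling ATF4 genes was 4 without vehicle library 1 and 1 without vehicle library 3 or any 1 Mpc1-KO library.

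Interferon-stimulated genes were lower. Of 54 measured members 32 passed lower and 1 higher, against 18.3% of all genes passing lower, with a median log2 fold change of -0.38. Gbp2, an interferon-induced GTPase, went from 12.01, 11.9 and 14.8 CPM in vehicle to 5.54, 5.64 and 6.94 CPM in Mpc1-KO. Gbp2 had a log2 fold change of -1.03 ± 0.12 (SE) and an adjusted p of 1.27e-04. Uba7, the activating enzyme for the ubiquitin-like protein ISG15, went from 18.4, 17.01 and 17.8 to 12.1, 11.7 and 11.9 CPM. The change in Uba7 was -0.56 ± 0.072 (SE, log2), at an adjusted p of 2.64e-04. Samd9l (-0.59) and Parp14 (-0.45) fell as well. Library medians were -0.07, -0.06 and 0.17 in vehicle and -0.45, -0.46 and -0.20 in Mpc1-KO, so that vehicle library 3 and Mpc1-KO library 3 were the highest of their groups. The count fell to 17 without Mpc1-KO library 1 and to 19 without Mpc1-KO library 2 or vehicle library 3. The gene against the trend, Oasl1 (0.33), did not pass without 4 of the 6 libraries (adjusted p 0.0693 to 0.149). With the spread of 9 libraries 4 members passed lower, Gbp2 and Uba7 among them but not Samd9l or Parp14.

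Cytokine and NF-κB genes were mixed, with 15 of 35 lower (42.9%) and 7 higher. Over all genes 18.3% passed lower and 17.7% higher. Only the falling share of this list stood clearly above that of all genes, and its rising share was close to it. The cytokine Tslp rose from 84.8, 86.6 and 96.4 to 172, 168 and 181 CPM, whereas Tnf fell from 185, 173 and 182 to 133, 125 and 118 CPM, both without overlap. Tslp showed a log2 fold change of 0.96 ± 0.052 (SE), with an adjusted p of 2.16e-06. Tnf had a log2 fold change of -0.52 ± 0.048 (SE) and an adjusted p of 3.73e-05. The feedback inhibitors Tnip1 (-0.32) and Tnfaip3 (-0.54) fell, and Lcn2 (0.41) and Bcl3 (0.19) rose. Among 15 secreted defence genes 6 passed higher and 6 lower (40.0% each way). Lactoferrin (Ltf) went from 41.96, 38.6 and 41.1 to 92.5, 81.2 and 91.4 CPM. The change in Ltf was 1.11 ± 0.058 (SE, log2), at an adjusted p of 2.08e-06. Ceruloplasmin (Cp, -0.41), Muc20 (-0.98), C1s1 (-0.63) and Pigr (-0.42) were lower in Mpc1-KO beside Dmbt1 and Clu, and the defensin Defb1 (1.12), Agr2 (0.81), Pglyrp1 (0.24) and Wfdc2 (0.12) were higher beside Ltf and Lcn2. Of 25 immediate early genes 8 passed higher (32.0%, and 4 genes without Mpc1-KO library 1 or 5 without library 3) and 7 lower (28.0%). Fos (-0.71), Fosb (-0.54) and Atf3 (-0.63) were lower and Maff (0.45) higher. Tnfaip3, C1s1, Pigr, Agr2, Pglyrp1, Wfdc2, Fosb, Atf3 and Maff did not pass with the spread of 9 libraries.

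**Figure D3:**
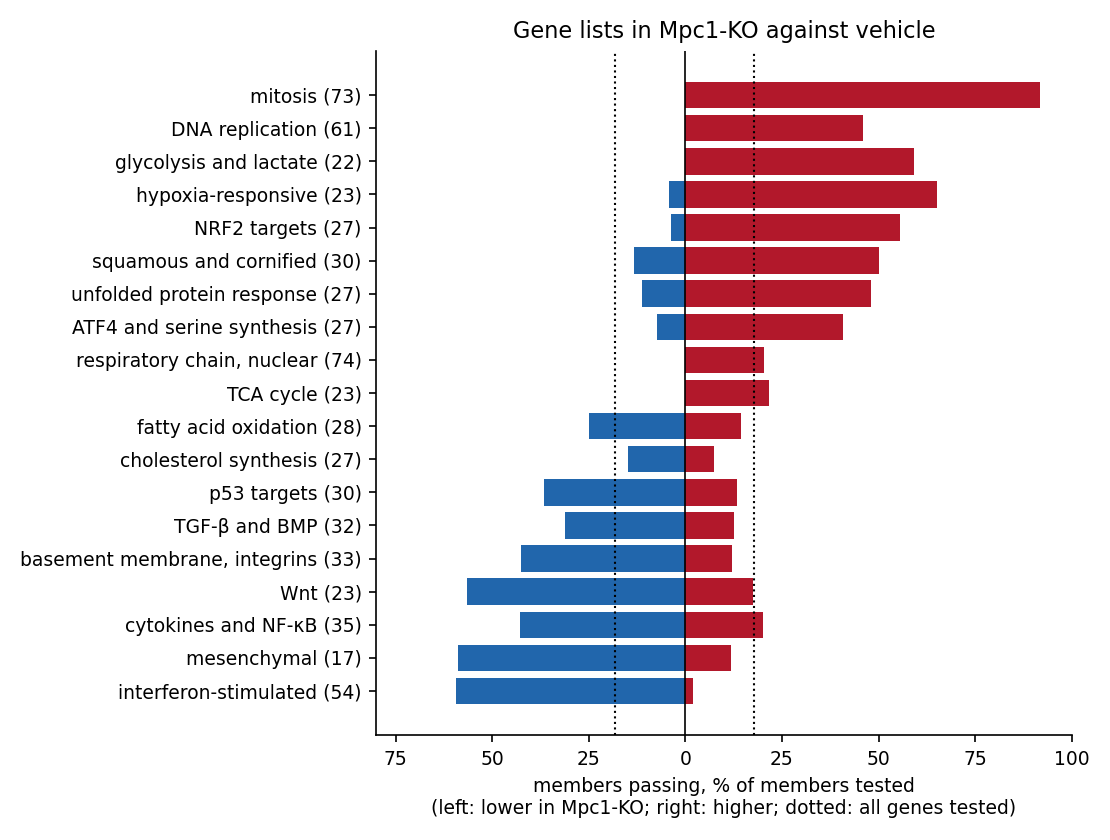
Bars give the share of the measured members of each gene list (number in brackets) that passed higher (red, to the right) or lower (blue, to the left) in Mpc1-KO against vehicle, as a percentage. Dotted lines mark all genes tested (17.7% higher, 18.3% lower), with mitosis at 67 of 73 higher and interferon-stimulated genes at 32 of 54 lower.

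Genes of mesenchyme and matrix were lower. Of 17 measured mesenchymal genes 10 passed lower (58.8%) and 2 higher (11.8%), against 18.3% and 17.7% of all genes, with a median log2 fold change of -0.43. The intermediate filament vimentin (Vim) stood at 129, 188 and 169.9 CPM in vehicle and 37.1, 53.1 and 38.2 CPM in Mpc1-KO. Vim showed a log2 fold change of -1.91 ± 0.15 (SE), with an adjusted p of 1.19e-05. The secreted phosphoprotein Spp1 went from 96.3, 62.3 and 57.2 to 17.5, 24.2 and 19.3 CPM, with the highest value in vehicle library 1. Spp1 had a log2 fold change of -1.77 ± 0.17 (SE) and an adjusted p of 4.66e-05. It did not pass with the spread of 9 libraries (adjusted p 0.0593). Snai2 (0.41) rose, and decorin (Dcn, 1.44) did so only with all 6 libraries or without vehicle library 2, whose 7.92 CPM stood apart from 1.27 and 1.25 CPM (adjusted p up to 0.16 without another library). Of 13 fibroblast and smooth muscle markers 5 were measured, and the 13 summed to 12.1 to 22.3 CPM in vehicle and 14.5 to 18.4 CPM in Mpc1-KO. Of the 5, Pdgfra (-1.27) and Col1a1 (-0.42) passed lower, the latter not without vehicle library 3 or Mpc1-KO library 1 or 3 (adjusted p 0.0573 to 0.0989), Dcn passed higher, and Acta2 (-0.61) and Tagln (-0.19) did not pass. Without vehicle library 1, which had the least Acta2 of its group, all but Dcn passed lower (4), and Acta2 did so without Mpc1-KO library 2 as well (adjusted p 0.0448). Col1a1 and Dcn did not pass with the spread of 9 libraries. The part of such cells in these changes was not tested. In bulk RNA, fewer cells of a kind and less RNA in each cell cannot be told apart.

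Among 33 genes of basement membrane and integrins 14 passed lower (42.4%) and 4 higher (12.1%), against 18.3% and 17.7% of all genes. Col7a1, of the anchoring fibrils, fell from 1370, 1416 and 1410 to 944, 1039 and 931 CPM. The change in Col7a1 was -0.53 ± 0.047 (SE, log2), at an adjusted p of 2.87e-05. Col4a2 (-0.45) and the fibronectin receptor chain Itga5 (-0.60) fell, and Nid1 (0.38), Col4a6 (0.77) and Dst (0.54) rose, those rises not with the spread of 9 libraries. Of 32 genes of TGF-β and BMP signalling 10 passed lower (31.25%) and 4 higher (12.5%). The activin subunit Inhba went from 1612, 1506 and 1531 to 1042, 1139 and 1081 CPM. Inhba showed a log2 fold change of -0.51 ± 0.045 (SE), with an adjusted p of 2.83e-05. Ltbp2 (-0.87), Ccn2 (-0.54) and Thbs1 (-0.45) fell, and the inhibitory Smad6 rose (0.39).

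Wnt pathway genes fell in larger number than they rose, with a median of -0.19. Of 23 genes 13 passed lower (56.5%) and 4 higher (17.4%, and 2 genes without Mpc1-KO library 1), against 18.3% and 17.7% of all genes. The R-spondin receptor Lgr6 went from 32.98, 32.6 and 30.9 to 9.50, 11.6 and 9.47 CPM, with no overlap. Lgr6 had a log2 fold change of -1.62 ± 0.086 (SE) and an adjusted p of 2.08e-06. The ligand Wnt5a fell from 123, 140.3 and 131 to 67.3, 89.4 and 72.3 CPM. The change in Wnt5a was -0.79 ± 0.09 (SE, log2), at an adjusted p of 1.20e-04. The receptor Fzd7 (0.55) rose together with the inhibitor Wif1. Of 13 Notch genes the ligands Dll1 (0.68) and Jag2 (0.26), the target Hey1 (0.44) and the coactivator Maml2 (0.29) passed higher, and the ligand Jag1 (-0.29) and the receptor Notch3 (-0.13) lower. Notch3 did not pass without 4 of the 6 libraries (adjusted p 0.102 to 0.184) nor with either other scaling (0.0932 to 0.0936). Of 25 genes of ERK signalling and its feedback 9 passed higher (36.0%), among them Errfi1 (0.44), Nrg1 (0.37) and Egfr (0.24), and 3 lower (12.0%), among them Spred3 (-0.48). The falling genes of this list numbered 5 without vehicle library 1 and 1 without vehicle library 2 or Mpc1-KO library 2 or 3. Fzd7, Dll1, Jag2, Hey1, Notch3, Errfi1 and Nrg1 did not pass with the spread of 9 libraries.

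Lineage keratins moved little. Krt5 stood at 1701, 1557 and 1628 CPM in vehicle and 2233, 1986 and 2046 CPM in Mpc1-KO, and the groups did not overlap. Krt5 showed a log2 fold change of 0.36 ± 0.053 (SE), with an adjusted p of 5.59e-04. Krt14 (-0.20) and Krt17 (-0.39), also of basal cells, passed lower, and Trp63 (0.16) higher. Of the luminal keratins Krt8 (-0.22) passed lower and Krt18 (0.068) did not pass, though it did without vehicle library 1 (adjusted p 0.022). The calls of Krt14, Trp63 and Krt8 did not hold without Mpc1-KO library 2 or 3, nor those of Trp63 and Krt8 without library 1 (adjusted p 0.0723 to 0.168), and that of Trp63 did not hold with median-of-ratios scaling (adjusted p 0.0513). Of 21 basal markers 10 passed higher (47.6%) and 6 lower (28.6%), and of 24 luminal markers 9 higher (37.5%) and 3 lower (12.5%). Over all genes 17.7% passed higher and 18.3% lower. The luminal transcription factors Gata3 and Foxa1 went from 245, 246 and 246 to 366, 334 and 363 CPM and from 433, 386 and 405 to 514, 473 and 491 CPM. Gata3 had a log2 fold change of 0.53 ± 0.04 (SE) and an adjusted p of 1.18e-05. The change in Foxa1 was 0.27 ± 0.048 (SE, log2), at an adjusted p of 0.00153. Hoxb13 (0.24), Ly6a (0.48) and Elf3 (0.59) rose as well, and Prom1 (-0.24) and Krt7 (-0.24) fell. Of 29 measured genes of a luminal signature 4 passed higher (13.8%) and 9 lower (31.0%). Of 16 of a basal signature 6 passed higher (37.5%) and 5 lower (31.25%), among which Cdh13 (0.67) rose and Bnc1 (-0.28) fell. With the spread of 9 libraries Krt14, Trp63, Krt8, Hoxb13, Elf3, Prom1 and Krt7 did not pass.

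Squamous genes rose in part. Of 30 genes of squamous and cornified epithelium 15 passed higher and 4 lower (13.3%), with a median log2 fold change of 0.29. Over all genes 17.7% passed higher and 18.3% lower, so that only the rising share of the list stood above that of all genes. Tgm1, which cross-links the cornified envelope, went from 15.2, 15.6 and 17.2 to 32.7, 25.1 and 31.5 CPM. Tgm1 showed a log2 fold change of 0.87 ± 0.10 (SE), with an adjusted p of 1.17e-04. Krtdap went from 1.13, 0.73 and 0.54 to 3.41, 2.89 and 3.91 CPM, a low gene without overlap between groups. Krtdap had a log2 fold change of 1.60 ± 0.19 (SE) and an adjusted p of 1.55e-04. Sprr1a (0.55) rose, and the keratins Krt80 (-0.57) and Krt16 (-0.52) and the connexin Gjb2 (-0.56) fell, none of them with the spread of 9 libraries. Of 10 desmosome genes none passed higher and 2 passed lower, a falling share close to that of all genes. Dsg3 (-0.17) and Pkp3 (-0.11) passed lower with all 6 libraries but not without 3 and 4 of them (adjusted p 0.0814 to 0.166). Neither gene passed with either other scaling (adjusted p 0.052 to 0.0968) or the spread of 9 libraries. In retinoic acid metabolism Aldh1a3, which makes retinoic acid, fell from 1044, 887 and 965 to 582, 649 and 617 CPM. The change in Aldh1a3 was -0.65 ± 0.06 (SE, log2), at an adjusted p of 3.73e-05. The reductase Dhrs3 (0.30) and the receptors Rarg (0.24) and Rarb (0.26) rose, and Stra6 (-0.32) fell, where Rarb and Stra6 did not pass with the spread of 9 libraries. The protease inhibitors Serpinb9 and Serpinb6b fell from 18.8, 17.6 and 17.1 to 4.91, 5.96 and 5.01 CPM and from 5.26, 7.45 and 7.78 to 1.91, 1.91 and 2.11 CPM. Serpinb9 showed a log2 fold change of -1.67 ± 0.10 (SE), with an adjusted p of 3.26e-06. Serpinb6b had a log2 fold change of -1.55 ± 0.15 (SE) and an adjusted p of 5.16e-05. The tight junction protein Cldn6 fell by 1.11.

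**Figure D4:**
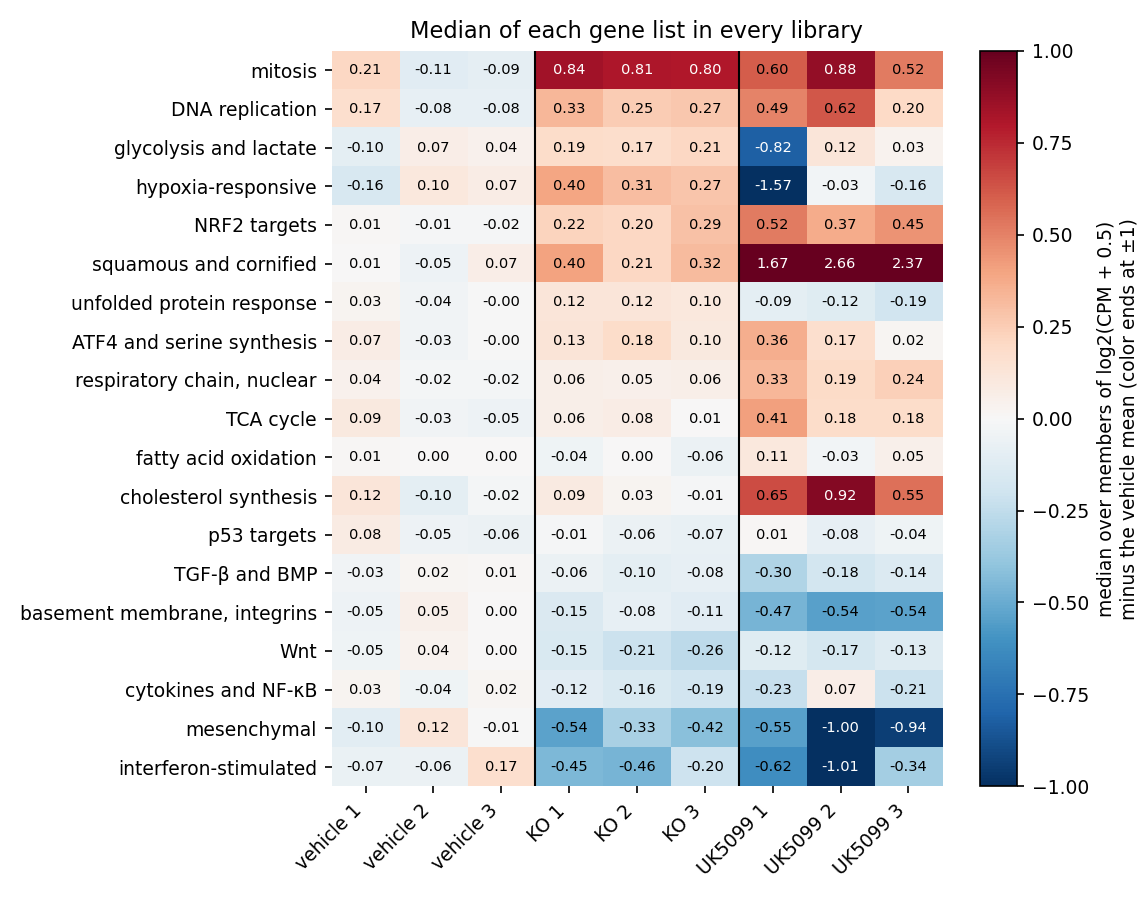
Each cell is the median over the members of a list of log2(CPM + 0.5) minus the mean of the vehicle libraries, for the 3 vehicle, 3 Mpc1-KO and 3 UK5099 libraries (columns), with colour ends at ±1. Mitosis is near 0.8 in all Mpc1-KO libraries, squamous genes are above 1.6 only with UK5099, and UK5099 library 1 stands apart in hypoxia-responsive genes at -1.57.

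Further lists held few calls or went both ways, against 17.7% of all genes passing higher and 18.3% lower. Of 45 genes of ribosome biogenesis 5 passed higher, led by Npm1 (0.26), and 5 lower, led by Bop1 (-0.44), and without vehicle library 1 the rising count was 11, while the falling count was 1 to 3 without any 1 Mpc1-KO library. Bop1 did not pass with the spread of 9 libraries. Of 32 genes of acetyl-CoA supply and histone acetylation 7 passed in each direction, and the deacetylase Hdac9 fell from 5.84, 3.76 and 4.47 to 0.87, 1.47 and 0.69 CPM. The change in Hdac9 was -1.80 ± 0.21 (SE, log2), at an adjusted p of 1.43e-04. Without Mpc1-KO library 2 the falling members numbered 4. Of 21 zinc transporters and metallothioneins 3 passed higher and 4 lower, with the metallothioneins Mt1 (-0.29) and Mt2 (-0.31) among the latter, and the falling count was 2 without Mpc1-KO library 2. Neither Mt1 nor Mt2 passed with the spread of 9 libraries. Of 19 genes of antigen presentation by MHC class I 6 passed lower and 1 higher, where leaving out vehicle library 1 gave 12 lower and leaving out any other library 2 or 3.

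Deletion and drug were set against each other by the contrast of Mpc1-KO with UK5099, in a fit of all 9 libraries and 12396 genes. In it 5498 genes (44.4%) passed, 2620 higher in Mpc1-KO and 2878 lower. The effects of deletion and drug share the vehicle libraries, and their values against vehicle are given side by side. For mitosis the median log2 fold change was 0.82 with deletion and 0.68 with drug, and for cholesterol synthesis 0.03 and 0.72. The squamous list had medians of 0.29 and 2.19. For Fn1 the change was -1.21 with deletion and -4.20 with UK5099. Mpc1-KO minus UK5099 came to 2.99 ± 0.24 (SE, log2) for Fn1, with an adjusted p of 1.70e-05. Clu changed by -1.09 and -2.90. The difference of Clu was 1.81 ± 0.25 (SE, log2) with an adjusted p of 3.51e-04. Krt5 changed by 0.36 and 1.99. Mpc1-KO minus UK5099 came to -1.63 ± 0.078 (SE, log2) for Krt5, with an adjusted p of 9.92e-07. The aryl hydrocarbon receptor target Cyp1b1, at 10.5, 9.69 and 9.24 CPM in Mpc1-KO and 196, 235 and 192 CPM with UK5099, was far higher with the drug. The difference of Cyp1b1 was -4.33 ± 0.093 (SE, log2) with an adjusted p of 8.46e-09. For Apoe the changes were 2.20 and 2.17 and the difference did not pass (adjusted p 0.931), with a wide spread of 21.9, 33.8 and 49.7 CPM among UK5099 libraries. Igfbp5 differed, at 20.9, 13.4 and 10.4 CPM in Mpc1-KO and 5.77, 2.06 and 5.34 CPM with UK5099. Mpc1-KO minus UK5099 came to 1.70 ± 0.36 (SE, log2) for Igfbp5, with an adjusted p of 0.0039. UK5099 library 1 stood apart from the other drug libraries, with a list median of -1.57 for hypoxia-responsive genes against -0.03 and -0.16. For hexokinase 2 (Hk2) the difference between Mpc1-KO and UK5099 was 1.05 with that library and 0.79 without it, and for Adm 2.99 and 2.24.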

How the data were processed

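RNA from sorted organoid cells was made into libraries with a stranded mRNA kit and sequenced as single reads of 50 bases. The authors aligned reads to GRCm39 with STAR 2.7.9a and deposited CPM values from Partek Flow with 0.0001 added to each. That offset was subtracted here. The authors' own test of differential expression was made with DESeq2 and was not repeated. Among the symbols 24 had become spreadsheet dates, 96.4% of symbols matched GENCODE M21, and 1 entry without a name was left out.

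Genes whose mean in these 6 libraries reached 1 CPM entered a fit in limma 3.58.1 (R 4.3.3, variance trend) of log2(CPM + 0.5), with Benjamini-Hochberg adjustment over all 12254 genes and a threshold of 0.05. The contrast with UK5099 used all 9 libraries. Reads were recovered from the size of 1 read in each library (99.9% of values whole within 0.02 reads), and intervals cover counting error only. On simulated data of 12253 genes, 200 were changed by 1.5-fold or more. Of those changed 1.5-fold 95.73% were recovered, with 4.68% false calls. Every simulated gene had the same variation beyond counting error, no library stood apart and few genes changed. The share of false calls in the simulation is therefore not the error rate of the calls in the real data.

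The members and gene lists were chosen with earlier results of these data known. Named genes were Mpc1, Mpc2 and lineage genes, the 10 largest changes each way with at least 5 CPM and no overlap, the 8 largest differences in CPM each way, the 4 members of each list with the smallest p, all members of lists with up to 16 measured, and up to 3 members against the majority of a list. Some genes that meet this rule are not reported here. Other genes named were picked after their values were seen. Alternatives covered the pseudocount, the filter, the scaling, the variance model, the libraries included and a replicate block.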

Additional observations from a re-analysis of the deposited data

Results flagged for a closer look

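Among the genes named by the rule and reported here, 36 passed in both comparisons with vehicle in opposite directions, and the difference between the effects of deletion and UK5099, tested in the fit of 9 libraries, passed as well. Over all genes 571 did so, of which 346 were higher with deletion and lower with UK5099. The deletion was called in the fit of vehicle and Mpc1-KO libraries alone. The effect of UK5099 against vehicle was called in the fit of all 9 libraries, so that these calls rest on different estimates of the spread. With the spread of all 9 libraries the call of the deletion was lost by 26 of the 36 genes, and 164 of the 571 kept it. The 10 named genes that kept it were Lcn2, Dhrs3, Smad6, Maml2, Fads1, Hspa5, Snap29, Bnc1, Scap and P2ry2. Values in brackets are the log2 difference of deletion minus UK5099.

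21 of the named genes were higher with deletion and lower with the drug. They were Adm (2.99), Lcn2 (1.99), Rarb (1.67), Slc7a5 (1.52), Bsg (1.505), Pglyrp1 (1.44), Hey1 (1.42), Nid1 (1.41), Adh1 (1.31), Slc39a4 (1.25), Hk2 (1.05), Dhrs3 (0.94), Gadd45a (0.93), Kdm3a (0.86), Spry1 (0.83), Smad6 (0.73), Slc39a13 (0.60), Maml2 (0.50), Wfdc2 (0.50), Fads1 (0.48) and Hspa5 (0.42).

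In the other direction, 15 genes were lower with deletion and higher with the drug. They were Bckdk (-0.46), Snap29 (-0.47), Notch3 (-0.60), Bnc1 (-0.61), Scap (-0.67), Pkp3 (-0.70), Fasn (-0.76), Krt80 (-1.10), P2ry2 (-1.21), Mt2 (-1.29), Dsg3 (-2.03), Krt14 (-2.06), Hsd17b7 (-2.31), Gjb2 (-2.72) and Krt16 (-4.37).

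UK5099 library 1 stood apart from the other 2 for hypoxia-responsive genes. Without it all 36 differences passed, with Adm at 2.24, Bsg at 1.18, Hk2 at 0.79 and Kdm3a at 0.68, while the effect of UK5099 alone on Maml2 did not pass (adjusted p 0.0747).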

How the results depend on the processing

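No gene that passed changed its sign under any alternative. The 4412 calls became 1323 (699 higher, 624 lower) when the spread was estimated over all 9 libraries, 2647 (1342 higher, 1305 lower) at an adjusted p below 0.01, and 718 (287 higher, 431 lower) when a change of more than 1.5-fold was required as well. Leaving out 1 library gave 3058 to 5162 genes, with 1511 to 2720 higher and 1547 to 2442 lower, the lowest total without Mpc1-KO library 1 and the highest without vehicle library 1. Other settings gave 3636 genes (no variance trend) to 4436 (trimmed mean scaling). For Mpc1-KO against UK5099 the 5498 calls became 4445 with these 6 libraries alone and 4008 to 6194 without 1 library (higher 1977 to 3261, lower 2031 to 3439). The cause of these shifts was not tested. Replicate numbers were not treated as pairs, since deviations of same-numbered libraries correlated at -0.04, -0.03 and 0.09, below the limit of 0.1 set for this. Such weak correlations cannot tell whether a number stands for a shared animal or culture, and the labels do not say. With the replicate block 4169 genes passed, and 5765 for Mpc1-KO against UK5099. Count models were not run because the deposited values are CPM with an offset, and limma-voom on recovered reads, chosen after seeing the data, gave 4393 genes. For single genes and lists, 5635 values kept their direction and call or stayed within 1.5 times, 327 fell below the threshold and 316 counts or medians moved.

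Depth limits low genes. Of genes at 1 to 10 CPM 24.2% passed, against 49.0% of genes at 100 CPM or more. Each group has 3 libraries, and an exact permutation test of 3 against 3 cannot go below a two-sided p of 0.1.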

Other observations

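Genes of cytosolic ribosomal proteins, a family picked after its values were seen, were higher in Mpc1-KO. Of 75 measured members 54 passed higher and 1 (Rps4l, -0.34) lower, against 17.7% and 18.3% of all genes. The median log2 fold change was 0.31, with 33 of 45 members of the large subunit and 21 of 30 of the small subunit passing higher. Rps15a (0.45), Rplp2 (0.43), Rps24 (0.38) and Rpl8 (0.37) are examples. Leaving out a library gave 48 to 56 rising members, and the spread of 9 libraries gave 36. All 5 measured subunits of the elongation factors (Eef1a1, Eef1b2, Eef1d, Eef1g and Eef2) passed higher, and of 76 mitochondrial ribosomal proteins 7 passed higher and 1 lower. Ribosomal protein genes have many near-identical pseudogenes, which can share reads of 50 bases.

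Collagens, likewise picked after their values were seen, were mostly lower. Of 21 measured collagen genes 11 passed lower (52.4%) and 2 higher (9.52%), against 18.3% and 17.7% of all genes. Their median log2 fold change was -0.43. Col5a3 fell from 48.6, 39.2 and 35.6 CPM in vehicle to 9.89, 15.1 and 12 CPM in Mpc1-KO, a log2 fold change of -1.70. Col27a1 (-1.13) and Col8a1 (-0.64) fell as well, and Col16a1 (0.46) rose. Leaving out a library gave 9 to 12 falling members, and 7 passed lower with the spread of 9 libraries.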
